A study of Bos taurus with 24 samples.

Results

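The genes of the 4 caseins and of beta-lactoglobulin were followed in the mammary gland and the liver of dairy cows in lactation. The 5 genes were chosen by identifier from the 24616 Ensembl genes counted in each library, and all 5 had a row in every file. They are CSN1S1 (alpha-s1-casein, ENSBTAG00000007695), CSN2 (beta-casein, ENSBTAG00000002632), CSN1S2 (alpha-s2-casein, ENSBTAG00000005005), CSN3 (kappa-casein, ENSBTAG00000039787) and PAEP (beta-lactoglobulin, ENSBTAG00000014678). The files give identifiers only, so the names rest on the list of members and could not be checked against a table that pairs both.

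In the study 6 cows ate alfalfa hay and 6 cows ate corn stover, the crop residue of maize, as forage. The diets were fed for 12 weeks, and liver and mammary gland were taken from every cow after slaughter. This gave 4 groups of 6 RNA sequencing libraries. The labels give parity 2 for alfalfa hay replicate 2 and corn stover replicate 1, and parity 3 for the other cows. Cows on alfalfa hay were 231 to 246 days in milk and gave 26.3 ± 2.66 kg of milk per day. Cows on corn stover were 228 to 254 days in milk and gave 20.4 ± 2.03 kg per day (SD, n = 6 each).

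Caseins are secreted phosphoproteins that bind calcium phosphate and assemble into the micelles of milk. CSN1S1, CSN2 and CSN1S2 encode the calcium-sensitive caseins that fill the micelle. CSN3 encodes the casein at the micelle surface, which keeps micelles apart and is cut by chymosin when milk clots. PAEP encodes the main whey protein of ruminant milk, a lipocalin that stays in solution. In the secretory epithelium of the udder these genes are known targets of prolactin signalling through STAT5. The RefSeq gene table of the ARS-UCD2.0 assembly, which is not the build of the files, places the 4 casein genes on 1 chromosome. In that table CSN1S1 and CSN2 are direct neighbours, with HSTN and STATH between CSN2 and CSN1S2, and PRR27 and ODAM between CSN1S2 and CSN3. PAEP lies on another chromosome. No sequence of these genes was used here, so none is shown.

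Library totals ran from 22579051 to 37954234 counts. The mammary library of alfalfa hay replicate 4 held the most, 37954234 counts against 22579051 to 30209312 in the 11 other mammary libraries. Levels are given as normalised CPM (counts scaled to a common library size), the count relative to the library total times a trimmed-mean (TMM) scaling factor. The factor was 0.717 in mammary alfalfa hay replicate 4 and 1.38 in mammary corn stover replicate 1, so the normalised CPM of different libraries sum to different totals. In liver, alfalfa hay replicates 1 to 5 stood apart from the other 7 libraries in reads of the 5 genes, and each liver result below is given with and without them. The labelled mammary gland carried its defining milk protein genes in all 12 libraries. The label of liver could not be checked on named liver markers, since the files name no genes.

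In mammary gland the 5 genes together took more than 57% of all counted reads in every library. Their summed share ran from 65.4% to 74.5% on alfalfa hay (median 68.9%) and from 57.7% to 71.2% on corn stover (median 69.0%). In each diet the parity 2 cow had the lowest share, alfalfa hay replicate 2 at 65.4% and corn stover replicate 1 at 57.7%. A relation to parity was not tested. The groups of the 2 diets overlapped. The means were 69.4% ± 3.54 and 67.5% ± 5.11 (SD, n = 6), a difference of -1.92 percentage points that was smaller than the SD of either group. Without corn stover replicate 1 the difference was 0.0454 percentage points. The 4 caseins alone took 66.3% ± 3.66 on alfalfa hay and 63.7% ± 5.52 on corn stover.

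**Figure D1:**
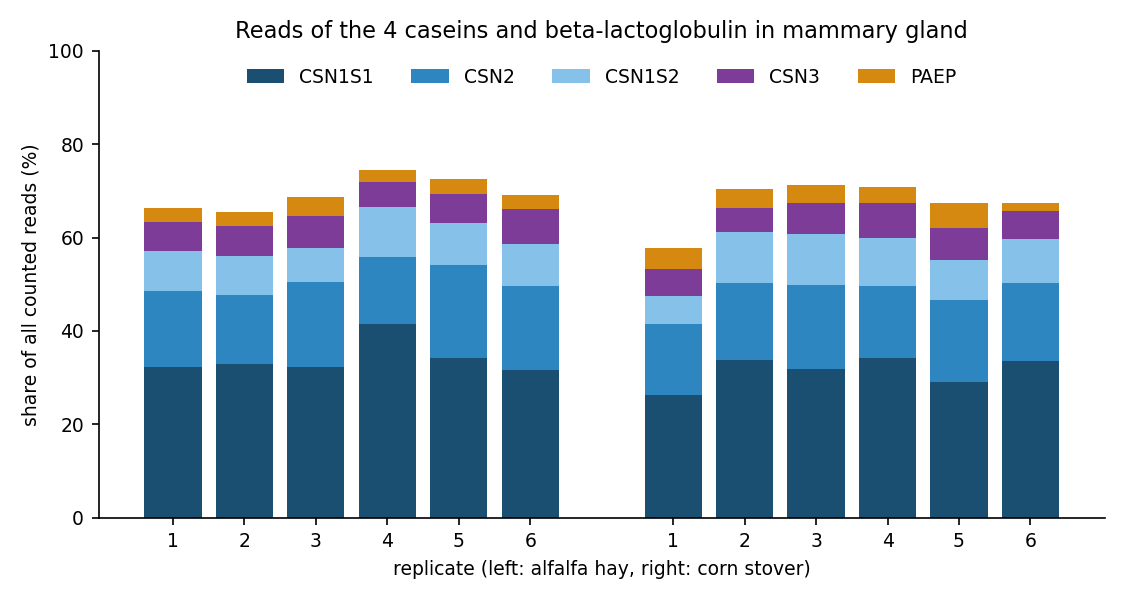
Share of all counted reads (%) taken by each of the 5 genes in the 12 mammary libraries, stacked, with alfalfa hay replicates on the left and corn stover replicates on the right. The stacks reach 65.4% to 74.5% on alfalfa hay and 57.7% to 71.2% on corn stover, and corn stover replicate 1 is the lowest.

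By number of reads the order of the genes was the same in all 12 mammary libraries. CSN1S1 was first at 32.8% ± 3.60 of all counted reads, followed by CSN2 at 16.7% ± 1.65 and CSN1S2 at 9.08% ± 1.47. CSN3 was the fourth at 6.39% ± 0.806 and PAEP came after it at 3.45% ± 0.956 (SD, n = 12 each). These shares are reads per gene and not per length of transcript, so they do not rank the genes by number of transcripts. The caseins held ranks 1 to 4 among all 24616 genes in every mammary library. PAEP held rank 5 in 11 libraries and rank 6 in corn stover replicate 6, where its share was 1.70%. In that library ENSBTAG00000043561, a gene with no name in the files, took 2.95% of reads. In the other 11 libraries the next gene after PAEP was ENSBTAG00000005859, at 1.61% to 2.79% of reads. Both identifiers were picked after their values were seen.

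Each of the 5 genes was far higher in mammary gland than in liver. The log2 difference, mammary gland minus liver, was 15.6 ± 1.17 for CSN1S1, 15.3 ± 1.07 for CSN2 and 15.9 ± 1.02 for CSN1S2. It was 15.4 ± 0.963 for CSN3 and 15.1 ± 0.948 for PAEP (SE; edgeR quasi-likelihood test over 24 libraries, largest adjusted p of the 5 = 4.92e-12). Of 13760 genes tested, 4609 were higher in mammary gland (33.5%) and 4774 lower (34.7%), together 68.2%, and all 5 milk protein genes were among the higher ones. DESeq2 called 69.3% of genes in either direction, with all 5 among them. Without liver alfalfa hay replicates 1 to 5 the log2 differences were larger, from 18.7 for CSN2 to 19.5 for CSN3 (edgeR, largest adjusted p = 1.27e-05). In bulk tissue fewer cells of a type and less RNA per cell cannot be told apart.

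The mammary diet comparison asked whether the milk protein genes of the cows with lower milk yield were expressed at another level. None of the 5 genes passed the threshold, in a test that called 0 of 12027 genes (0%; edgeR, threshold 0.05 on the adjusted p). With no adjustment 784 genes had p below 0.05, and none of the 5 was among them. DESeq2 called 42 genes (0.349%), also none of the 5. In 0 of the 5 genes did all libraries of a diet lie to one side of the other diet, which held for 0.341% of all genes tested.

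CSN1S1 ran from 288316 to 580746 normalised CPM on alfalfa hay (median 301521) and from 189857 to 417425 on corn stover (median 321023). Alfalfa hay replicate 4 was the highest of all cows and corn stover replicate 1 the lowest. The log2 difference, corn stover minus alfalfa hay, was -0.19 ± 0.29 (SE; edgeR adjusted p = 0.962), with a 95% interval from -0.83 to 0.45. Without alfalfa hay replicate 4 the difference was 0.0012 (edgeR).

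CSN2 ran from 128309 to 232061 normalised CPM on alfalfa hay (median 170006) and from 110217 to 187507 on corn stover (median 173275). On corn stover 5 cows lay close together, between 166450 and 187507, and replicate 1 stood below every other cow. The log2 difference was -0.083 ± 0.25 (SE; edgeR adjusted p = 0.987), with a 95% interval from -0.63 to 0.47.

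CSN1S2 ran from 67340 to 149687 normalised CPM on alfalfa hay (median 81779) and from 43312 to 123196 on corn stover (median 99250). The same cows as for CSN1S1 were the highest and the lowest. The log2 difference was 0.017 ± 0.30 (SE; edgeR adjusted p = 0.996), with a 95% interval from -0.64 to 0.67. Its sign turned when any of 7 single libraries was left out, so the data gave it no direction.

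CSN3 ran from 54890 to 73957 normalised CPM on alfalfa hay (median 68016) and from 41943 to 93066 on corn stover (median 62353). Corn stover held both extremes, replicate 1 the lowest and replicate 4 the highest of the 12 cows. The log2 difference was -0.044 ± 0.24 (SE; edgeR adjusted p = 0.993), with a 95% interval from -0.58 to 0.49.

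PAEP was at 31750 ± 5490 normalised CPM on alfalfa hay and 37244 ± 12031 on corn stover (SD, n = 6). It ran from 25692 to 37527 normalised CPM on alfalfa hay (median 32443) and from 16878 to 51976 on corn stover (median 38589). On corn stover 3 cows lay above every alfalfa hay cow, while replicate 6 lay below all other cows. The log2 difference was 0.23 ± 0.27 (SE; edgeR adjusted p = 0.939), with a 95% interval from -0.36 to 0.82. It was 0.38 without corn stover replicate 6 (edgeR adjusted p = 0.770) and -0.096 with days in milk as a covariate (edgeR adjusted p = 0.944). A change of 2-fold in either direction, a log2 difference of 1 in size, lay outside the 95% interval of each of the 5 genes.

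**Figure D2:**
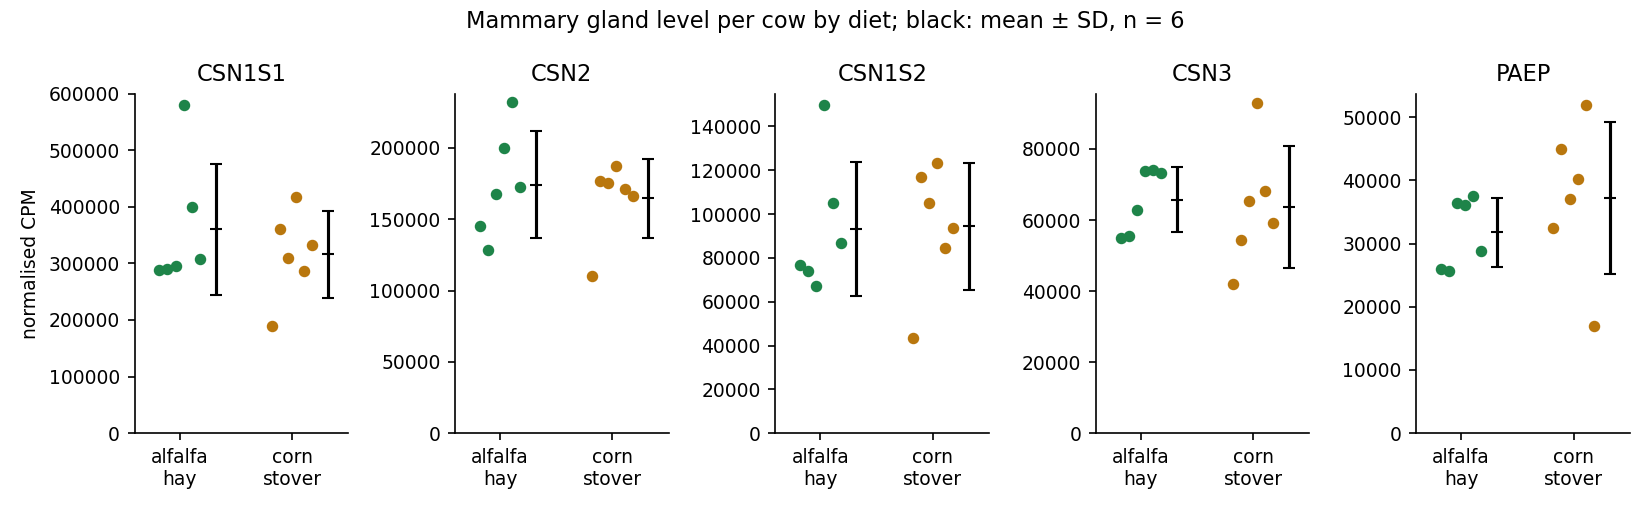
Normalised CPM in mammary gland (vertical axes, each from 0), 1 point per cow, for alfalfa hay and corn stover, with mean ± SD in black (n = 6). The diets overlap in all 5 genes, and corn stover replicate 1 is the lowest cow in the 4 caseins while replicate 6 is the lowest in PAEP at 16878 normalised CPM.

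Differences between cows were large beside those between diets. Over the 12 cows the coefficient of variation of normalised CPM was 28.6% for CSN1S1, 18.7% for CSN2, 30.2% for CSN1S2, 20.3% for CSN3 and 27.2% for PAEP. The median over the 12027 genes tested was 31.6%. Of the genes tested, 12.0% were less variable than CSN2 and 16.5% less variable than CSN3. The genes tested were not matched for level, and those with few reads carry more counting error in this measure.

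The proportions of the genes to each other do not depend on library depth or on the scaling factor. Of the reads of the 5 genes, CSN1S1 took 49.2% ± 3.62 on alfalfa hay and 46.6% ± 2.48 on corn stover (SD, n = 6). CSN2 took 24.3% ± 3.04 and 24.6% ± 1.72, and CSN1S2 took 12.7% ± 1.20 and 13.7% ± 1.89. CSN3 took 9.29% ± 1.31 and 9.44% ± 1.29, and PAEP took 4.48% ± 0.740 and 5.69% ± 2.01. The largest difference between the diets was -2.60 percentage points, in CSN1S1, and that of PAEP was 1.21 percentage points.

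With the summed reads of the 5 genes as the reference, none of the 5 passed the threshold, in a test that called 0 of 12027 genes (0%; edgeR). PAEP had the largest log2 difference, 0.34 ± 0.24 (SE; edgeR adjusted p = 0.9997), with a 95% interval from -0.19 to 0.88. The range over single libraries left out was 0.23 to 0.50. The caseins were between -0.078 and 0.10. On this scale the median log2 difference of all genes tested was 0.12. The proportion of PAEP ran from 3.46% to 5.77% on alfalfa hay (median 4.41%) and from 2.53% to 7.86% on corn stover (median 5.65%). Corn stover replicates 1, 2 and 5 stood at 7.77%, 5.96% and 7.86%, above every alfalfa hay cow, and replicate 6 at 2.53%, below every other cow.

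Single pairs showed which ratios were held more closely from cow to cow. The ratio of CSN1S1 to CSN1S2 reads was 3.67 ± 0.447 (SD, n = 12), a coefficient of variation of 12.2% and the smallest of the 10 pairs. That of CSN2 to CSN3 was 2.64 ± 0.339, or 12.8%. The other pairs of caseins varied by 17.6% to 24.1%. Over the 12 cows the 4 pairs with PAEP varied by 31.8% (CSN3) to 38.9% (CSN1S2). On corn stover alone they varied by 46.9% to 54.3%, against 11.4% to 26.3% for the pairs of caseins. On alfalfa hay alone the ranges overlapped, 10.8% (CSN2 to PAEP) to 24.9% with PAEP and 7.35% to 23.7% among caseins. Corn stover replicate 6 had the highest value of all 12 cows in each of the 4 ratios to PAEP. For CSN2 to PAEP it was 9.86, against a median of 4.87 over the 12 cows. The spread on corn stover was not computed without this cow, so it is not shown to be a trait of the group. The ratio of CSN1S1 to PAEP ranged from 5.51 in corn stover replicate 5 to 19.7 in corn stover replicate 6. For CSN1S1 to CSN1S2 the means were 3.88 ± 0.285 on alfalfa hay and 3.46 ± 0.503 on corn stover (SD, n = 6). Of the 6 cows on corn stover, 4 had a lower ratio than any cow on alfalfa hay. No test was made of single ratios.

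Across the 12 mammary libraries the normalised CPM of the caseins varied together. CSN1S1 and CSN1S2 had the closest relation in log2 normalised CPM, with Pearson r = 0.932 (permutation p = 4.00e-05, adjusted over the 10 pairs 4.00e-04) and Spearman rho = 0.916 (permutation p = 1.00e-04, adjusted 0.0010). Without the 2 cows farthest from the median of CSN1S1, alfalfa hay replicate 4 and corn stover replicate 1, r was 0.832. Among the 6 cows of each diet r was 0.970 in both. The 5 other pairs of caseins had r from 0.716 for CSN1S1 and CSN3 to 0.821 for CSN2 and CSN1S2. Their permutation p, adjusted over the 10 pairs, was at most 0.0201 for r. For rho it was 0.0613 for CSN1S1 and CSN3 and for CSN1S2 and CSN3, and at most 0.0152 for the other 3. Without the 2 farthest cows these r were between 0.464 and 0.762. All levels share the scaling factor of their library, and corn stover replicate 1 was the lowest in each casein. The factor was 0.717 in alfalfa hay replicate 4 and 1.38 in corn stover replicate 1. As a share of counted reads, alfalfa hay replicate 4 had the highest CSN1S1 of all cows (41.6%) but the lowest CSN2 (14.3%). The permutation test does not allow for a shared factor. These relations are of normalised levels and were not computed for shares of reads, so which of them hold for shares is not shown.

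By Pearson r PAEP was less closely tied to the caseins over the 12 cows. Its r was 0.167 with CSN1S1, 0.342 with CSN2, 0.231 with CSN1S2 and 0.295 with CSN3. Its Spearman rho was 0.231, 0.608, 0.406 and 0.357 in the same order. By rank the relation with CSN2 was thus as close as that of the caseins CSN1S2 and CSN3 (rho = 0.601). None of these passed the permutation test (two-sided, smallest adjusted p = 0.391 for r and 0.0613 for rho, the latter with CSN2). Within alfalfa hay alone r of PAEP with the caseins was 0.491 to 0.855, and within corn stover it was 0.0671 to 0.243 (n = 6 each). Whether these ranges differ between the diets was not tested. On corn stover replicate 6 was the lowest in PAEP and within the range of the other cows in each casein. Replicate 1 was the lowest in each casein, while its PAEP, 32441 normalised CPM, lay within the alfalfa hay range.

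**Figure D3:**
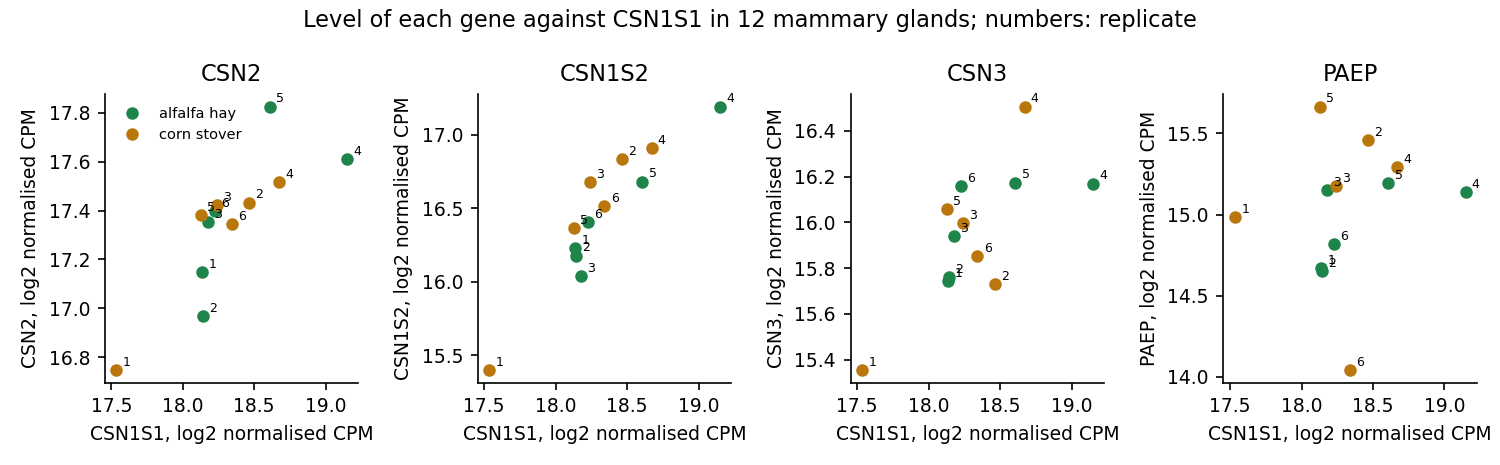
Log2 normalised CPM of CSN2, CSN1S2, CSN3 and PAEP (vertical axes) against CSN1S1 (horizontal axis) in the 12 mammary libraries, numbered by replicate. The points of CSN1S2 follow CSN1S1 closely (r = 0.932), while those of PAEP are scattered (r = 0.167) with corn stover replicate 6 far below.

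For each of the 5 genes the gene with the most similar pattern was sought among 12022 others, after subtraction of the diet means and with scaling that leaves the 5 genes out. For CSN1S1 it was ENSBTAG00000000162 (r = 0.970), for CSN2 ENSBTAG00000027795 (r = 0.950) and for CSN1S2 ENSBTAG00000007385 (r = 0.963). For CSN3 it was ENSBTAG00000022613 (r = 0.945) and for PAEP ENSBTAG00000004910 (r = 0.949). These are the highest of 12022 values over 12 libraries each, so they overstate the likeness. By the same measure the nearest of the 5 genes was CSN1S2 for CSN1S1 (r = 0.959) and CSN2 for PAEP (r = 0.373).

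The relation to milk yield was taken within the diets, since the diets differ in yield. The highest yield of each diet, 29.0 kg per day on alfalfa hay and 23.3 on corn stover, was that of its parity 2 cow. No yield slope was fitted in parity 3 cows alone, so at that end of the range yield and parity cannot be told apart. With diet in the model, the slope per kg of milk per day in log2 units was -0.089 ± 0.061 for CSN1S1 and -0.11 ± 0.065 for CSN1S2 (SE; edgeR adjusted p = 0.575 and 0.544). It was -0.032 ± 0.056 for CSN2, -0.048 ± 0.055 for CSN3 and 0.053 ± 0.064 for PAEP (edgeR adjusted p = 0.839, 0.731 and 0.748). None of the 5 passed, in a test that called 0 of 12027 genes (0%), with 1178 genes at an unadjusted p below 0.05 (edgeR). DESeq2 also called 0 genes, with 1366 at an unadjusted p below 0.05. The sign for PAEP turned without corn stover replicate 6, the cow with the lowest yield (17.1 kg per day) and the lowest PAEP, and the slope was then -0.0092 (edgeR).

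On alfalfa hay Pearson r between yield and log2 level was -0.377 for CSN1S1, -0.113 for CSN2, -0.490 for CSN1S2, -0.318 for CSN3 and 0.123 for PAEP (n = 6). On corn stover it was -0.685, -0.637, -0.608, -0.493 and 0.557. In these 10 relations the exact permutation p ran from 0.133 to 0.935, where 720 pairings allow 0.00278, and Spearman rho from -0.60 to 0.0286 (exact permutation p from 0.242 to 1). Without the 2 cows farthest from the median yield, alfalfa hay replicates 4 and 6, r on alfalfa hay was 0.165 to 0.487. Without corn stover replicates 1 and 6, r on corn stover was -0.425 to -0.843 for the caseins and 0.0023 for PAEP. The 4 negative values for the caseins on alfalfa hay thus turned positive without those 2 cows, with 4 cows and a narrower range of yield left.

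Proportions of the 5 genes were set against yield in the same way. For PAEP on corn stover r was 0.857 (exact permutation p = 0.0417) and rho 0.60 (exact permutation p = 0.242). On alfalfa hay r was 0.618 (exact permutation p = 0.178) and rho 0.829 (exact permutation p = 0.0583). For CSN1S2 r was -0.651 on alfalfa hay (exact permutation p = 0.149) and -0.517 on corn stover (exact permutation p = 0.285). Adjusted over the 20 relations with yield computed, the smallest p was 0.594 for r and 0.743 for rho. Without the 2 cows farthest from the median yield r of PAEP was 0.369 on corn stover and 0.250 on alfalfa hay. Leaving these cows out narrows the range of yield and keeps 4 cows, so it cannot show what the relation rested on. The summed share of the 5 genes had r = -0.299 with yield on alfalfa hay and -0.542 on corn stover.

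**Figure D4:**
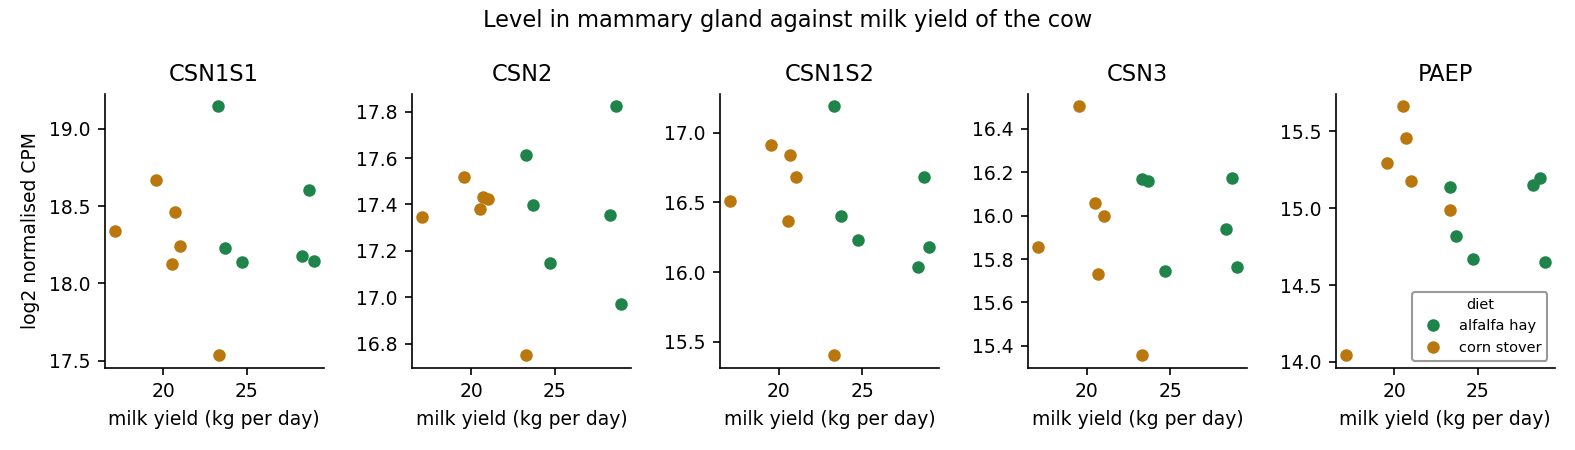
Log2 normalised CPM in mammary gland (vertical axes) of each of the 5 genes against the milk yield of the cow in kg per day (horizontal axes), 1 point per cow. The corn stover cow with the highest yield, the parity 2 cow of that diet, has the lowest level in each casein. The corn stover cow with the lowest yield, 17.1 kg per day, has the lowest PAEP.

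In liver the reads of the 5 genes were traces, and they fell into separate ranges. Together the 5 genes had 4945, 4981, 4302, 3494 and 2303 reads in alfalfa hay replicates 1 to 5, and 32 reads in alfalfa hay replicate 6. In corn stover replicates 1 to 6 they had 282, 1, 46, 677, 10 and 32 reads. Alfalfa hay replicates 1 to 5 lay above all 7 other livers, and alfalfa hay replicate 6 was within the range of corn stover. Scaled to library totals alone this was 97.6 to 201 in alfalfa hay replicates 1 to 5 and 0.0347 to 23.4 CPM in the other 7. The 5 libraries are also those whose count column is headed with the letter of the tissue, which the 7 other livers and all mammary files lack. What this difference in heading stands for is not given in the sources used here. Of the 6 alfalfa hay livers 5 carry the letter and of the corn stover livers none, so a fit with heading and diet together has only alfalfa hay replicate 6 to separate them.

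**Figure D5:**
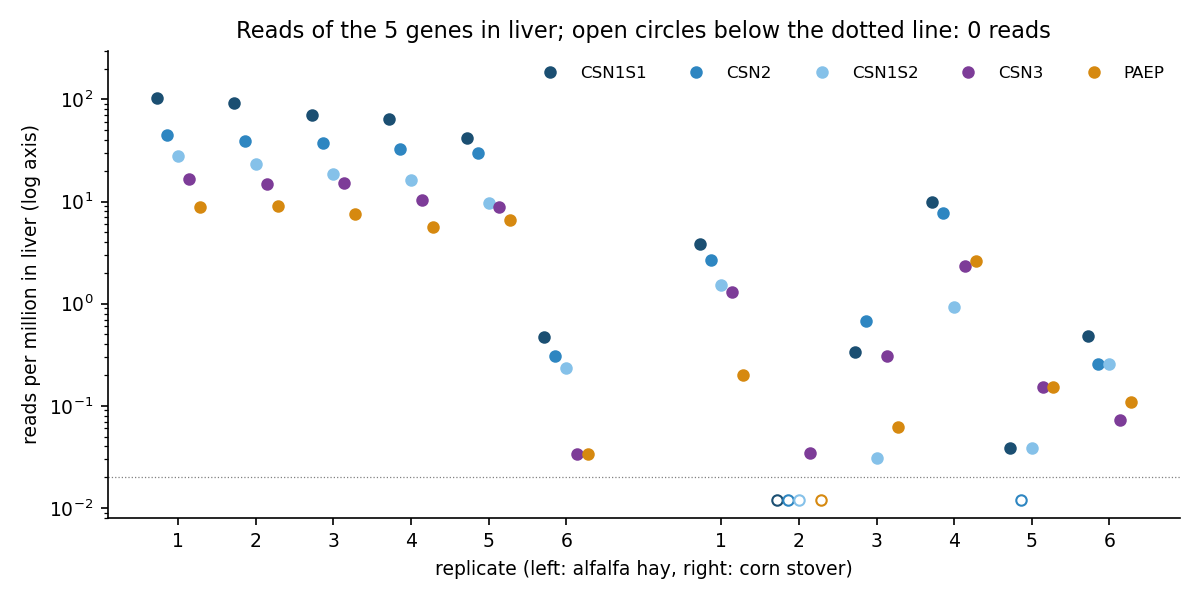
Reads scaled to library totals, in CPM (log axis), of each of the 5 genes in the 12 liver libraries, with alfalfa hay replicates on the left and corn stover replicates on the right; open circles mark 0 reads. Alfalfa hay replicates 1 to 5 sit together at the top, and alfalfa hay replicate 6 lies among the corn stover libraries.

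All 5 genes followed this pattern. CSN1S1 had 2522, 2564, 2032, 1735 and 997 reads in alfalfa hay livers 1 to 5 and 14 in replicate 6. In corn stover livers 1 to 6 it had 113, 0, 11, 285, 1 and 13 reads. The range was 711 to 1113 against 0 to 222 reads for CSN2, and 228 to 686 against 0 to 45 for CSN1S2, in the 5 libraries and in the 7 others. It was 211 to 441 against 1 to 67 reads for CSN3, and 153 to 253 against 0 to 76 for PAEP. Where a gene had 0 reads, in corn stover replicates 2 and 5, a count of 0 allows up to 0.104 and 0.115 CPM on library totals. This limit is 3 counts per library and covers counting error only.

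The liver diet comparison called 0 of 12929 genes (0%; edgeR), and 354 genes had an unadjusted p below 0.05, the 5 genes among them. CSN1S2 was at 17.8 ± 13.5 normalised CPM on alfalfa hay and 0.523 ± 0.779 on corn stover (SD, n = 6). Its log2 difference was -5.15 ± 1.07 (SE), with adjusted p = 0.806 in edgeR. The other log2 differences were -4.76 for CSN1S1, -4.11 for CSN2, -4.04 for CSN3 and -3.71 for PAEP (edgeR adjusted p = 0.99999 each). DESeq2 called 3 genes (0.0232%) and none of the 5, with an adjusted p of 0.0583 for CSN1S2. The diets separated fully in 0 of the 5 genes and in 0.0619% of the genes tested.

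Without the 5 libraries that stood apart, the fitted sign turned in every one of the 5 genes. In the 7 other livers the log2 difference was 2.54 for CSN1S1, 2.79 for CSN2, 1.23 for CSN1S2, 4.40 for CSN3 and 3.89 for PAEP, and no gene passed (edgeR adjusted p = 0.9999 each). This fit sets alfalfa hay replicate 6 alone against 6 corn stover libraries and assumes that the lone library varies as the others do. For CSN1S1 that library, at 0.434 normalised CPM, lay above 4 of the 6 corn stover livers and above their median of 0.357. For CSN2 and for CSN1S2 it lay above 3 of the 6, for PAEP above 1 and for CSN3 above 0. The highest corn stover livers were replicates 1 and 4 in each gene, and alfalfa hay replicate 6 had 1 read each of CSN3 and PAEP. The data of these 7 livers thus gave the difference no direction for CSN1S1, CSN2 and CSN1S2. For CSN3 and PAEP the fitted values rest on that 1 read in 1 library, where counting error alone allows up to 5.57 reads. With 1 library in a group, a gene enters the fit on a single library, for PAEP corn stover replicate 4 (76 reads). No direction can be read from 4.40 and 3.89 either. With the kind of heading as a batch term the values were 2.52, 2.77, 1.18, 4.37 and 3.88.

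Whether the diet difference in liver was unlike that in mammary gland was tested over all 24 libraries. The log2 interaction, mammary minus liver, was 4.54 ± 1.52 for CSN1S1, 3.99 ± 1.39 for CSN2, 5.11 ± 1.25 for CSN1S2, 3.95 ± 1.16 for CSN3 and 3.91 ± 1.16 for PAEP (SE). None passed, in a test that called 0 of 13760 genes (0%; edgeR adjusted p = 0.643, 0.714, 0.323, 0.542 and 0.542). DESeq2 called 74 of 13760 genes (0.538%), among them all 5, with adjusted p from 1.81e-04 for CSN1S2 to 0.0177 for PAEP. Under limma voom, RLE scaling, no filter, TMM without the 5 genes, the cow as a block and each cow left out, none of the 5 passed. Without alfalfa hay livers 1 to 5 the interactions turned to -2.74 for CSN1S1, -2.89 for CSN2, -1.20 for CSN1S2, -4.37 for CSN3 and -3.60 for PAEP, and none passed (edgeR adjusted p = 0.99999 each).

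Set against the mammary library of the same cow, the liver reads of the 5 genes stood at 134 to 304 ppm (the CPM in liver relative to the CPM in mammary gland) in alfalfa hay replicates 1 to 5. In the 7 other livers they stood at 0.0493 to 33.1 ppm. How alike the 5 genes were in this fraction differed from liver to liver. In alfalfa hay replicate 1 CSN1S1 was at 318 ppm, CSN2 at 279, CSN1S2 at 325, CSN3 at 269 and PAEP at 303. In alfalfa hay replicate 4 CSN1S1 and CSN1S2 were at 155 and 153 ppm while CSN2, CSN3 and PAEP were at 228, 197 and 220. In corn stover replicate 4 the range was wider, from 9.22 ppm for CSN1S2 (27 reads, 95% interval 6.07 to 13.4) to 79.5 ppm for PAEP (76 reads, 62.6 to 99.5). In corn stover replicate 1 it ran from 4.51 ppm for PAEP (6 reads) to 25.4 ppm for CSN1S2 (45 reads). These intervals cover counting error only.

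The proportions among the 5 genes in liver were therefore compared with those in each mammary library, as the summed difference in percentage points over 2. Alfalfa hay liver 4 had 49.7% of its reads of the 5 genes in CSN1S1, 25.2% in CSN2 and 12.7% in CSN1S2. The mammary gland of the same cow had 55.8%, 19.2% and 14.4%, a difference of 7.84 points and the farthest of the 12 mammary libraries. The mammary gland of alfalfa hay cow 1 was the nearest, at 1.54 points. Liver 1 was nearest to the mammary gland of alfalfa hay cow 2 (1.56 points, own cow 3.12). Liver 2 was nearest to its own cow (1.71 points). Liver 3 was nearest to alfalfa hay cow 1 (1.97 points, own cow 2.39). Liver 5 differed by 6.30 points from its own cow and by 4.49 from the nearest, corn stover cow 1. Among themselves the mammary libraries differed by 2.07 to 14.4 points, with a median of 4.98. So 1 of these 5 livers was nearest to the mammary gland of its own cow. The liver proportions rest on 2303 to 4981 reads each, and no test was made of these differences.

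In corn stover replicate 4, which had 677 reads of the 5 genes, 42.1% were CSN1S1, 32.8% CSN2, 3.99% CSN1S2, 9.90% CSN3 and 11.2% PAEP. Its mammary gland had 48.5%, 21.8%, 14.3%, 10.8% and 4.67%, a difference of 17.6 points. In corn stover replicate 1, with 282 reads, PAEP made up 2.13% in liver (6 reads) and 7.77% in mammary gland.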

How the data were processed

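RNA sequencing of liver and mammary gland of 12 cows was used. Each deposited file holds unnormalised counts of reads per gene for 1 library. The submitters' processing notes name the build UMD3.1, HTSeq 0.6.1, SAMtools 1.1 and TopHat2 2.0.9. Annotation release, strand setting and order of steps were not stated there. Blank rows (0 to 7 per file) held no reads and were dropped. The gene table at hand matched 0 of 24616 identifiers, so the planned lists of other pathway genes and of tissue markers could not be applied. The rule for named genes took all 5 members and, for each, the gene with the highest correlation. Members and lists were chosen with earlier results of these data known.

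Counts were tested with edgeR 4.0.16 in R 4.3.3 (filterByExpr with minimum count 10 and minimum total 15, TMM, quasi-likelihood test). Benjamini-Hochberg adjustment ran across every gene in the fit, at a threshold of 0.05. The SE is the log2 difference over the square root of F, and 95% intervals use the residual degrees of freedom among libraries. Log2 levels for correlations are of normalised CPM. Permutation tests were two-sided, with 100000 resamples for 12 cows and all 720 pairings for 6. Alternatives were DESeq2 1.42.0, limma 3.58.1 voom, other scaling and filters, covariates, blocks and libraries left out. Scripts were tested on simulated data. All 12 cows had identical measurements in the labels of both libraries, which pairs the tissues; deviations of a cow's libraries correlated at -0.14 to 0.29. Each library is 1 cow. Limits for a count of 0 take in counting error alone.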

Additional observations from a re-analysis of the deposited data

Results flagged for a closer look

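The gap of the highest or lowest cow to the next, relative to the whole range, was held against Dixon's 95% critical value in 34 groups of 6 and passed it in 3. The nominal rate of this criterion is about 1 group in 20; it was not measured here, and the groups are not independent, since they share libraries. In mammary gland on corn stover, CSN2 was at 110217 normalised CPM in replicate 1, below 166450 to 187507 in the other 5 cows. The summed share of the 5 genes was 57.7% in the same library, below 67.4% to 71.2%. That library is from the parity 2 cow on corn stover. In liver on corn stover, PAEP was at 2.55 normalised CPM in replicate 4, above 0 to 0.260 in the others.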

How the results depend on the processing

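Genes called by the mammary diet test numbered 0, but 42 with DESeq2 and 12 with the replicate number as a block. For the liver diet test they were 0, but 3 with DESeq2 and 3 with all 24 libraries in 1 fit. For the interaction they were 0, but 74 with DESeq2, and 0 to 2 with 1 cow left out. For the milk yield slope they were 0, but 2 with no diet term. For the proportions they were 0, but 15 with the replicate number as a block. None of the 5 genes was among these calls except in the DESeq2 interaction. The number shared by 2 diets names different cows, and deviations of such libraries correlated at -0.24 to 0.27 in mammary gland and 0.056 to 0.55 in liver; in each tissue at least 2 of 6 did not correlate best with their own number. With the cow as a block the tissue test called 9157 genes in place of 9383, and all 5 genes remained called. In the interaction the cow block called 0 genes. With 1 cow left out the tissue test called 9139 to 9357. The cause of these changes was not tested.

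In mammary gland the diet difference changed sign for CSN1S2 with days in milk as a covariate (-0.032) and with the replicate block (-0.0027), for CSN3 in parity 3 cows (0.017) and for PAEP with days in milk (-0.096). With 1 library left out, CSN1S1 ranged from -0.28 to 0.0012, CSN2 from -0.15 to 0.017, CSN1S2 from -0.074 to 0.20 and CSN3 from -0.18 to 0.059. In liver the sign turned with the heading as a batch term (CSN1S1 2.52, CSN2 2.77, CSN1S2 1.18, CSN3 4.37, PAEP 3.88) and in the 7 livers alone (2.54, 2.79, 1.23, 4.40, 3.89), a setting chosen after seeing the data. Without the 5 other livers, chosen likewise, the interactions turned to -2.74 for CSN1S1, -2.89 for CSN2, -1.20 for CSN1S2, -4.37 for CSN3 and -3.60 for PAEP, and the tissue test called 7750 genes. The yield slope of PAEP turned with days in milk (-0.023), with no diet term (-0.0092) and with the replicate block (-0.019). With 1 library left out it ranged from -0.0092 to 0.088, and that of CSN2 from -0.070 to 0.00032. The proportions ranged from -0.042 to 0.053 for CSN2 and from -0.043 to 0.091 for CSN3. The difference in summed share ranged from -2.72 to 0.0454 percentage points. None of these diet, interaction, yield and proportion values passed the threshold, and the summed share was not tested. Liver levels of a few reads carry the counting error of those reads.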
